A study of Mus musculus with 36 samples.

Results

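The atria of 3 mice given an AAV9 vector for MBNL1 were compared with the atria of 3 mice given an AAV9 vector for MBNL2, to ask whether these vectors leave different gene expression behind. These 6 libraries of the 36 in the series were chosen by their labels alone, as the samples named atria on dox with 3XFLAG-MBNL1 or with 3XMYC-MBNL2. All 6 mice were CUG960 animals (TREDT960I homozygous, MHCrtTA hemizygous), in which doxycycline switches on a human DMPK transcript with 960 interrupted CUG repeats through a transactivator driven by the myocyte promoter of Myh6, and all had dox from postnatal day 1 to collection at 21 weeks of age. The vectors, tagged human cDNAs behind the cardiac TNNT2 promoter, were injected into the tail vein at 9 weeks of age, so that 12 weeks passed before the RNA was taken. Neither cohort received a control vector, and the reference cohorts used below carried the same transgenes without any vector, on dox (+dox), off dox from 9 weeks (+/–dox) or never on dox (–dox), with 3 mice each. An MBNL1+MBNL2 cohort received both vectors. In the study's Western blots, atrial MBNL1 rose more over +dox atria with its vector than MBNL2 did with its own. Each rise is relative to a different endogenous protein, and the output of a vector cannot be told apart from the paralog it carries.

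MBNL proteins bind pre-mRNA and mRNA at short sequences of GC between pyrimidines and set alternative splicing, polyadenylation, localization and stability. In myotonic dystrophy type 1 the expanded CUG RNA of DMPK holds MBNL proteins in nuclear foci, and muscle and heart return toward fetal RNA patterns. MBNL1 is the main paralog of adult muscle, MBNL2 is the closest paralog with overlapping targets, and MBNL3 is mostly embryonic.

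The expected counts of the 6 libraries summed to 66.0 to 85.4 M, with 22938 to 23563 gene symbols above 0. Over the tabulated symbols, the log10(TPM + 1) values of replicates correlated at 0.995 to 0.998 (Pearson), and each pair of replicates differed by more than the noise of sampling (chi-square per gene of 15.2 to 57.0, against 1 for sampling alone). Replicate 3 of each cohort came from a later set of library names (set B) and was the only one with high Xist, the X-inactivation RNA of females, at 325 CPM in the MBNL1 cohort and 317 CPM in the MBNL2 cohort against 0.255 to 0.336 CPM in the other 4 libraries. Sex and library set were therefore balanced between the cohorts, but cannot be told apart from each other. CPM is the count scaled to the library size with TMM factors, with no correction for length. The atrial genes Nppa (7736 to 11649 CPM), Myl4 (3659 to 4394 CPM) and Myl7 (2273 to 2867 CPM) were high in all 6 libraries, and the ventricular light chain Myl2 was at 9.15 to 117 CPM.

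The vector-borne mRNAs are human and reach the values of mouse Mbnl1 and Mbnl2 only where a read also matches the mouse gene, so endogenous and delivered transcripts cannot be told apart. Mbnl1 (chr3:60472830-60629750, plus strand, GRCm38) was at 195, 197 and 195 CPM in the MBNL1 cohort and at 171, 166 and 169 CPM in the MBNL2 cohort. Mbnl2 (chr14:120275669-120431697, plus strand) was at 256, 284 and 262 CPM in the MBNL1 cohort and at 354, 327 and 325 CPM in the MBNL2 cohort. For each gene the libraries of its own vector lay above all libraries of the other vector. The log2 fold change of MBNL1 over MBNL2 was 0.22 for Mbnl1 (95% interval 0.04 to 0.40, adjusted p = 0.853) and -0.33 for Mbnl2 (-0.51 to -0.14, adjusted p = 0.478), and neither passed the test across genes. The TPM values, which do account for length, had the same order: Mbnl1 was at 70.2 ± 4.54 TPM (SD, n = 3) against 56.2 ± 2.73 TPM, and Mbnl2 at 119 ± 2.60 TPM against 156 ± 13.2 TPM. In the +dox cohort they were at 59.9 ± 4.79 and 135 ± 1.21 TPM, so that Mbnl2 in the MBNL1 cohort lay below the +dox level. Mbnl2 was also lower with the repeat off, at 232 to 259 CPM in +/–dox and 223 to 274 CPM in –dox atria. The +dox atria were at 294 to 325 CPM. Its log2 fold change over +dox atria was -0.32 in +/–dox atria (adjusted p = 0.0189) and -0.27 in –dox atria (adjusted p = 0.0427, edgeR's quasi-likelihood test). Over +dox atria it was -0.20 with MBNL1 (adjusted p = 0.572) and 0.13 with MBNL2. The part of the repeat response in the difference between the cohorts was not tested. Mbnl3 stayed at 0.0756 to 0.152 CPM over the 6 libraries. Dmpk, the mouse counterpart of the gene that carries the repeat, was at 497 to 560 CPM in the MBNL1 cohort and 524 to 559 CPM in the MBNL2 cohort, with a log2 fold change of -0.01 (95% interval -0.19 to 0.17).

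Few genes passed the test between the atria of the cohorts. Of 19231 genes tested, 1 (0.0052%) was called higher in the MBNL1 cohort and 0 were called lower. A call required a fold change of 1.5 or more and a Benjamini-Hochberg adjusted p below 0.05 in the quasi-likelihood test of edgeR, and 2 genes (0.0104%), both higher, were below that p. At an unadjusted p below 0.05 there were 1109 genes (5.77%), 603 higher and 506 lower in the MBNL1 cohort. The median log2 fold change of all tested genes was 0.0034, and the middle 90% of genes with a mean of at least 1 CPM lay between -0.26 and 0.27. Among these 13200 genes, 157 had an estimated fold change of at least 1.5. DESeq2 called 5 genes higher and 2 lower, and limma voom with sample weights called 4 higher and 6 lower. Some genes with a larger estimate than the called gene did not pass. The nuclear receptor Nr4a3, named after its values were seen, was at 5.82, 1.76 and 3.33 CPM with MBNL1 and at 29.98, 1.40 and 16.8 CPM with MBNL2 (log2 fold change -2.14, adjusted p = 0.765). The retinoic acid hydroxylase Cyp26b1, named likewise, was at 3.90, 13.6 and 2.43 CPM against 2.03, 1.23 and 1.50 CPM (log2 fold change 2.06, adjusted p = 0.863).

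**Figure D1:**
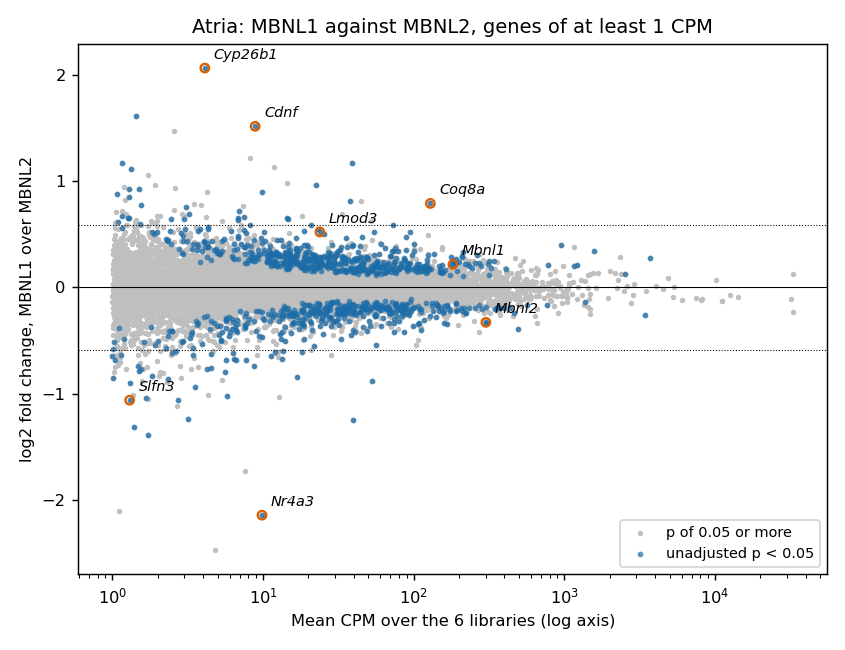
The plot of fold change against abundance shows the 13200 tested genes with a mean of at least 1 CPM, with the mean CPM of the 6 atrial libraries on a log x axis and the log2 fold change of MBNL1 over MBNL2 on the y axis. Blue points have an unadjusted p below 0.05, dotted lines mark a fold change of 1.5, and orange rings mark named genes, of which Cdnf (1.52) was called while Nr4a3 (-2.14) and Cyp26b1 (2.06) were not.

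The called gene was Cdnf (chr2:3513030-3526376, plus strand), which encodes cerebral dopamine neurotrophic factor, a secreted and endoplasmic reticulum-resident protein. Cdnf was at 12.8, 10.7 and 15.9 CPM in the MBNL1 cohort and at 4.77, 4.06 and 4.93 CPM in the MBNL2 cohort. The lowest MBNL1 library was thus above the highest MBNL2 library, in both library sets. Its log2 fold change was 1.52 (95% interval 1.06 to 1.97, SE 0.22), a fold change of 2.86, with an adjusted p of 0.00443. Cdnf was low where the repeat RNA was switched on, at 2.57 ± 0.17 CPM in +dox atria, 25.7 ± 2.30 CPM in –dox atria and 25.2 ± 1.49 CPM in +/–dox atria. The MBNL1+MBNL2 cohort was at 12.6 ± 2.7 CPM, next to the MBNL1 cohort at 13.1 ± 2.62 CPM and above the MBNL2 cohort at 4.59 ± 0.46 CPM. The log2 fold change of MBNL1+MBNL2 over MBNL2, where 2 genes (0.0104%) were called higher, was 1.46 (adjusted p = 0.0083, edgeR's quasi-likelihood test), and over MBNL1 it was -0.05 (adjusted p = 1). All 3 libraries of the MBNL1+MBNL2 cohort were of set B and low in Xist, so that its differences from both other cohorts cannot be told apart from those of library set and sex. Against +dox atria, the log2 fold change of Cdnf was 2.35 in the MBNL1 cohort (adjusted p = 8.97e-07) and 0.83 in the MBNL2 cohort (adjusted p = 0.573). The call of Cdnf was lost without MBNL1 replicate 3 (adjusted p = 0.0881), without MBNL2 replicate 1 (0.0627) or without MBNL2 replicate 2 (0.0710), and when the 6 libraries were fitted alone (0.0536), with a log2 fold change of 1.36 to 1.55 in these fits. In the pair of set A libraries per cohort the log2 fold change was 1.41 (adjusted p = 0.431), and between the set B libraries it was 1.68.

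**Figure D2:**
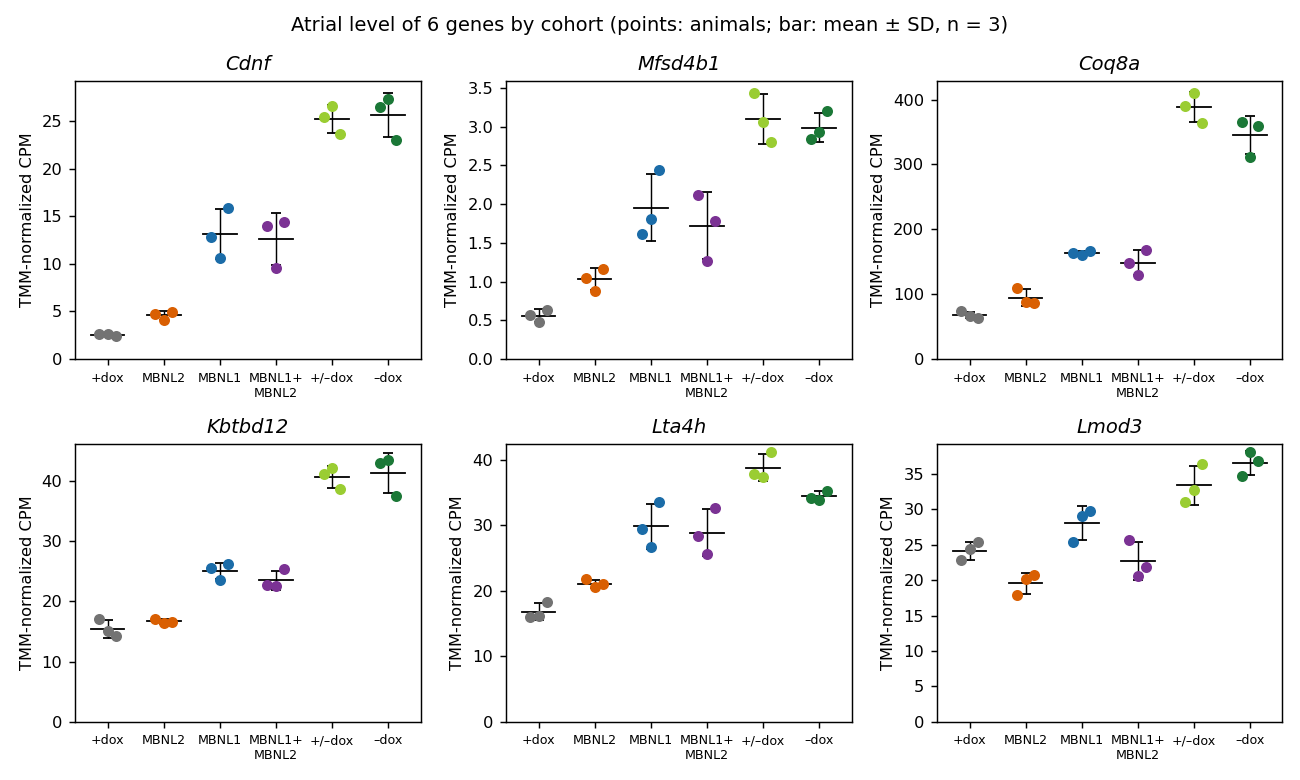
The plots of level by cohort give the TMM-normalized CPM (y axis, from 0) of Cdnf, Mfsd4b1, Coq8a, Kbtbd12, Lta4h and Lmod3 in 18 atrial libraries; points are animals and bars are the mean ± SD of 3. In each gene the 3 MBNL1 points lie above the 3 MBNL2 points and below the –dox points.

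Lmod3 (chr6:97238534-97252759, minus strand), which encodes leiomodin-3, a nucleator of sarcomeric actin filaments, was the other gene below an adjusted p of 0.05, at a fold change under the cutoff. It was at 25.4, 29.1 and 29.8 CPM in the MBNL1 cohort and at 17.9, 20.2 and 20.7 CPM in the MBNL2 cohort, without overlap. The log2 fold change was 0.52 (95% interval 0.33 to 0.71, adjusted p = 0.0465). The +dox atria, at 24.2 ± 1.28 CPM, lay between the cohorts, and the –dox atria were at 36.6 ± 1.72 CPM. Lmod3 is named outside the rule for the leading genes, after its values were seen, though it is also among the repeat-responsive genes of smallest p.

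Kbtbd12 (chr6:88545114-88637950, minus strand), a kelch and BTB domain protein, and Lta4h (chr10:93453411-93484875, plus strand), the hydrolase that makes leukotriene B4, came next in order of p. Kbtbd12 was at 25.5, 23.6 and 26.1 CPM with MBNL1 and at 17.1, 16.4 and 16.5 CPM with MBNL2. Its log2 fold change of 0.59 (95% interval 0.36 to 0.82) had an adjusted p of 0.0600. Lta4h was at 29.4, 26.7 and 33.5 CPM with MBNL1 and at 21.7, 20.5 and 20.9 CPM with MBNL2. Its log2 fold change was 0.50 (0.30 to 0.70), also with an adjusted p of 0.0600. Neither gene was called, though Kbtbd12 was without the filter on low counts and with a replicate block, and in both the cohorts did not overlap, as for 2852 (14.8%) of all tested genes. Kbtbd12 in the MBNL2 cohort (16.7 ± 0.38 CPM) was near the +dox level of 15.4 ± 1.47 CPM, and Lta4h in the MBNL2 cohort (21.1 ± 0.60 CPM) was between the +dox level of 16.8 ± 1.34 CPM and the MBNL1 level of 29.9 ± 3.43 CPM.

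As MBNL proteins bind many mRNAs in the 3′ untranslated region (UTR), a stretch of 30 bases from that region is shown for the 3 genes of smallest p, chosen as the first stretch with the most copies of TGCT and of TGCC, counted together with the same letters after an opening C, which are CGCT and the motif CGCC (GC between pyrimidines, read on the transcript strand, where copies may overlap by 1 base). The sequences are from GENCODE M21 transcripts on GRCm38, written as DNA in 5′ to 3′ direction, with the matching letters in capitals. They lie at chr2:3524225-3524254 (plus strand), chr6:97238617-97238646 (minus strand) and chr6:88547399-88547428 (minus strand).
Cdnf: tTGCCtttgcatTGCTatgacaataaTGCT
Lmod3: TGCCtTGCCtgaaaattgtagcgttgTGCT
Kbtbd12: ccTGCTcTGCTgggactcaagagtacTGCC
Each stretch holds 3 copies. At least 3 are held by 0.754% of all 30-base windows in the 3′ UTRs of 14581 tested genes, while 46.3% of these genes have at least 1 such window. Lta4h, with the same adjusted p as Kbtbd12, has a 3′ UTR of 94 bases in which the best stretch holds 1 copy, as at least 1 is held by 28.1% of all windows. Over the whole 3′ UTR, matches came to 14.2 per kb in Cdnf, 9.65 per kb in Lmod3 18.4 per kb in Kbtbd12 and 10.6 per kb in Lta4h, against a median of 12.5 per kb over all genes (quartiles 9.23 and 16.2). These matches describe letters in the reference and are not binding sites measured here.

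To describe what lies beneath the cutoffs, the genes of smallest p with a fold change of at least 1.5, a mean of at least 1 CPM and no overlap between the cohorts were listed, and none of those below passed the test. On the MBNL1 side were the coenzyme Q kinase Coq8a, the transporter Mfsd4b1, the ephrin ligand Efnb3, the scaffold protein Gipc3, the transcription factor Bcl11b, the mitochondrial carrier Slc25a47, the PI3-kinase inhibitor Pik3ip1 and Osgin1. Coq8a was at 163, 161 and 167 CPM with MBNL1 and at 110, 87.8 and 86.1 CPM with MBNL2, with a log2 fold change of 0.79 (95% interval 0.43 to 1.15, adjusted p = 0.225). The MBNL1 libraries of Coq8a lay within 6 CPM of each other. Mfsd4b1 was at 1.62, 1.80 and 2.44 CPM against 1.04, 0.881 and 1.17 CPM, with a log2 fold change of 0.92 (0.50 to 1.34, adjusted p = 0.225). Both were lower with the repeat on, with –dox levels of 345 ± 29.1 CPM for Coq8a and 2.99 ± 0.19 CPM for Mfsd4b1 against +dox levels of 67.8 ± 4.93 and 0.56 ± 0.08 CPM. Efnb3 was at 54.9, 52.7 and 37.5 CPM against 22.2, 28.1 and 32.3 CPM (log2 fold change 0.81, adjusted p = 0.443), and its MBNL2 level was near the +dox level of 26.2 to 29.8 CPM. Its log2 fold change was 1.10 in the set A libraries and 0.21 between the set B libraries. The other 5 had log2 fold changes of 0.59 to 0.88 and adjusted p-values of 0.484 to 0.741. The MBNL1+MBNL2 cohort, of set B only, lay nearer the MBNL2 cohort for Efnb3 (31.4 ± 9.19 CPM) and Gipc3 (2.72 ± 0.59 CPM). It lay nearer the MBNL1 cohort for Coq8a (148 ± 19.3 CPM), Mfsd4b1 (1.72 ± 0.43 CPM), Bcl11b, Slc25a47, Pik3ip1 and Osgin1. Coq8a was called by 6 of the 18 other fits that were made, DESeq2 and limma voom among them, Efnb3 by both of these tools and Mfsd4b1 by DESeq2.

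On the MBNL2 side were Slfn3 of the Schlafen family, the phosphodiesterase Pde10a, the cell adhesion molecule Ncam1, the lectin Clec2l, the kinesin Kif26b, the endothelial gene Apold1, Greb1, the skeletal muscle calcium channel Cacna1s and Trim67. Slfn3 was at 0.826, 0.788 and 0.915 CPM with MBNL1 and at 2.54, 1.15 and 1.59 CPM with MBNL2 (log2 fold change -1.06, 95% interval -1.56 to -0.56, adjusted p = 0.235). Pde10a was at 3.87, 4.02 and 2.79 CPM against 7.34, 4.49 and 4.66 CPM (log2 fold change -0.63, adjusted p = 0.443). In Slfn3, Pde10a, Apold1, Cacna1s and Trim67 the highest library was MBNL2 replicate 1. Ncam1 was even within the cohorts, at 8.42, 10.7 and 7.46 CPM against 13.4, 14.6 and 13.5 CPM (log2 fold change -0.64, adjusted p = 0.598). Clec2l had 10.6, 12.0 and 8.17 CPM against 15.3, 18.7 and 15.03 CPM (log2 fold change -0.67, adjusted p = 0.628), with a –dox level of 4.64 to 7.18 CPM. These genes had log2 fold changes of -0.60 to -1.06 and adjusted p-values of 0.235 to 0.819. Of these genes, DESeq2 called Slfn3 and limma voom called Ncam1 and Clec2l. Slfn3 has close paralogs, among which the authors' counting divides shared reads.

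The comparison was then read along the genes that respond to the repeat. In atria, 544 genes (2.83%) were called higher and 461 (2.40%) lower in –dox than in +dox mice, a contrast without the 6 vector libraries, which entered only the filter and the shared dispersions of the fit. Of the 544 genes, 69.9% had a higher estimate with MBNL1 than with MBNL2, with a median log2 fold change of 0.12, where 50.8% of all tested genes did, with a median of 0.0034. Of the 461 genes, 78.3% had a lower estimate with MBNL1, with a median of -0.15. The differences thus ran mostly in the direction of –dox mice in both sets, by small amounts. At an unadjusted p below 0.05, 67 of the 544 (12.3%) were higher and 5 lower with MBNL1, and 51 of the 461 (11.1%) were lower and 2 higher, against 3.14% higher and 2.63% lower over all genes. Cohorts did not overlap, with MBNL1 higher, in 100 of the 544 (18.4%), where 8.73% of all genes did, and with MBNL1 lower in 78 of the 461 (16.9%), where 6.10% did. Since all genes of a library come from the same animal, no p is attached to these counts.

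**Figure D3:**
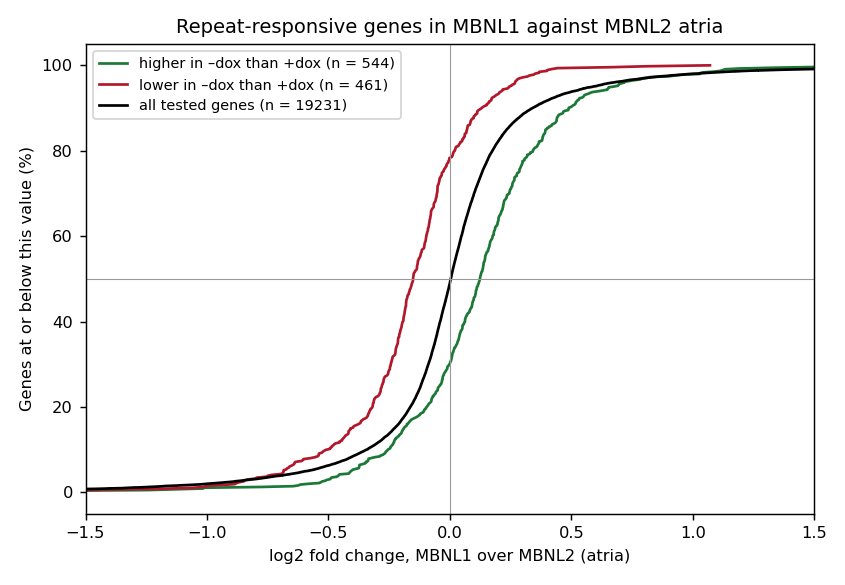
The cumulative plot gives the percentage of genes (y axis) at or below a log2 fold change of MBNL1 over MBNL2 (x axis) for the 544 genes higher in –dox atria, the 461 genes lower in –dox atria and all 19231 tested genes. The curve of the first set is shifted to the right of that of all genes and the curve of the second to the left, with medians of 0.12 and -0.15.

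Per library, the mean log2 CPM of the 544 genes relative to the +dox mean was 0.34, 0.37 and 0.46 in the MBNL1 cohort and 0.28, 0.18 and 0.34 in the MBNL2 cohort. For the 461 genes it was -0.33, -0.30 and -0.48 in the MBNL1 cohort and -0.23, -0.07 and -0.29 in the MBNL2 cohort. The lowest MBNL1 shift, 0.339 and -0.304, was larger than the highest MBNL2 shift, 0.336 and -0.291, by a small margin that is less than the SD within a cohort. As a percentage of the –dox shift, the means were 35.1% and 31.6% with MBNL1, 24.1% and 16.6% with MBNL2, 35.1% and 31.7% with both vectors (a cohort of set B only), and 77.3% and 78.8% after removal of dox. The same +dox and –dox libraries served to choose these genes and to set the 0 and the full length of this scale. Deviations of the +dox libraries can therefore move every other cohort toward –dox and make these percentages too high. Those of the –dox libraries can lengthen the scale and make them too low, and the net direction is not known. Over all tested genes the mean shift was 0.015 with MBNL1, 0.014 with MBNL2 and 0.051 in –dox atria. The median log2 fold change of the 544 genes was 0.08 without MBNL1 replicate 3 and 0.08 without MBNL2 replicate 2, and that of the 461 genes was -0.09 without MBNL2 replicate 2.

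**Figure D4:**
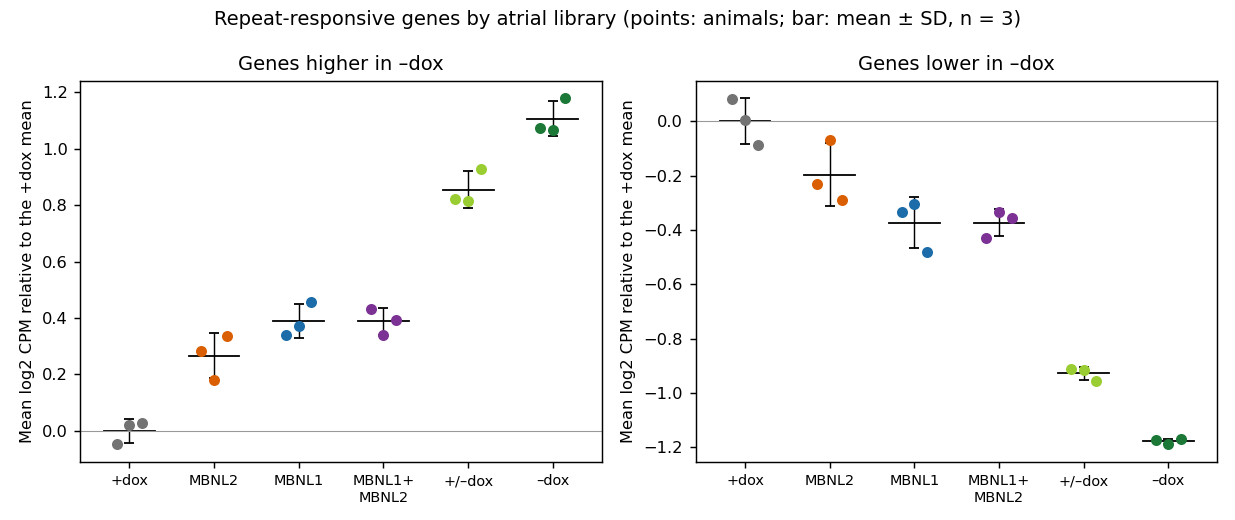
The plots of the mean shift give, for each of 18 atrial libraries, the mean log2 CPM relative to the +dox mean (y axis) of the genes higher (left) or lower (right) in –dox atria; points are animals and bars are the mean ± SD of 3. The MBNL1 libraries lie at 0.34 to 0.46 and -0.48 to -0.30 and the MBNL2 libraries at 0.18 to 0.34 and -0.29 to -0.07, between the +dox and –dox libraries.

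Against +dox atria, 25 genes (0.13%) were called in the MBNL1 cohort and 1 (0.0052%) in the MBNL2 cohort. These comparisons share the +dox libraries, and the difference in their counts is not itself a test between the vectors, for which the direct comparison found 1 gene. The gene called in both was Ckmt2, the sarcomeric mitochondrial creatine kinase. It was at 406, 482 and 503 CPM with MBNL1 and at 485, 393 and 386 CPM with MBNL2, with overlap, against 202 ± 41.7 CPM in +dox and 695 ± 77.95 CPM in –dox atria. The log2 fold change of MBNL1 over MBNL2 was 0.14 (95% interval -0.09 to 0.37, adjusted p = 0.959), and each cohort was above +dox atria, by 1.20 with MBNL1 (adjusted p = 2.03e-07) and by 1.06 with MBNL2 (adjusted p = 3.44e-06).

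Of the other genes fixed by the study's questions, Gja5 and Ryr2 had MBNL1 and MBNL2 levels near those of +dox atria. Gja5, the atrial gap junction protein connexin 40, was at 14.9, 12.7 and 15.2 CPM with MBNL1 and at 12.7, 12.9 and 19.9 CPM with MBNL2, against 14.5 to 18.3 CPM in +dox and 74.9 to 85.5 CPM in –dox atria. Its log2 fold change between the vectors was -0.09 (95% interval -0.51 to 0.34). Ryr2, the calcium release channel of the sarcoplasmic reticulum, was at 1207 to 1289 CPM with MBNL1 and 1200.1 to 1270 CPM with MBNL2, with a log2 fold change of 0.01 (-0.14 to 0.15). Its –dox level was 1985 ± 153 CPM. Asph, which encodes aspartyl hydroxylase and the junctional protein junctin, differed by -0.16 on the log2 scale (-0.33 to 0.02), the potassium channel gene Kcna4 by -0.17 (-0.51 to 0.16) and the pacemaker channel gene Hcn4 by -0.26 (-1.33 to 0.81). None of these passed the test, and the interval of Hcn4 is wide, as its libraries ran from 11.2 to 22.3 CPM.

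Of the genes with the largest response to the repeat, Mybpc2, which encodes a fast skeletal myosin-binding protein C, was at 11.9, 13.8 and 13.1 CPM with MBNL1 and at 8.51, 7.09 and 5.10 CPM with MBNL2 (log2 fold change 0.90, 95% interval 0.15 to 1.66, adjusted p = 0.853). Its +dox and –dox levels were 3.54 ± 0.89 and 23.9 ± 2.36 CPM. Clcn1, the muscle chloride channel, was at 4.42, 4.16 and 6.26 CPM against 2.62, 3.29 and 5.28 CPM, with overlap (log2 fold change 0.41, adjusted p = 0.892), and at 15.1 to 16.0 CPM in –dox atria. Stmnd1 was at 0.702 to 1.86 CPM against 0.534 to 0.788 CPM (log2 fold change 1.03, adjusted p = 0.863). Among the largest falls, Ptchd3, Cited1 and Sult4a1 had log2 fold changes of -0.47 to -0.57 with adjusted p-values of 0.932 to 0.993. Cited1, a transcriptional coactivator, was at 5.94, 5.21 and 4.15 CPM with MBNL1 and at 7.52, 8.35 and 6.63 CPM with MBNL2, against 7.97 to 10.7 CPM in +dox and 0.491 to 1.52 CPM in –dox atria. Vxn, which encodes vexin, went the other way: it was at 45.6, 41.6 and 47.3 CPM with MBNL1, at 31.5, 33.1 and 37.2 CPM with MBNL2 and at 28.7 to 31.2 CPM in +dox atria, while –dox atria were at 3.30 to 3.58 CPM. Its log2 fold change between the vectors was 0.40 (0.17 to 0.64, adjusted p = 0.502), away from –dox mice. Of the other repeat-responsive genes of small p, Tmc7 and Nhlrc2, both lower in –dox atria, had log2 fold changes of -0.42 and -0.22 (each with an adjusted p of 0.478).

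Lists of genes for the tissue and disease were then counted, and none of their members was called. Their counts are read against all tested genes, of which 3.14% were higher and 2.63% lower at an unadjusted p below 0.05, and 50.8% had a higher and 49.1% a lower estimate with MBNL1. Among 42 sarcomere genes, 2 (4.76%, near that share) were higher in the MBNL1 cohort at an unadjusted p below 0.05 and none lower, with a median log2 fold change of 0.06. Des, which encodes the intermediate filament protein desmin, was at 1045, 1160 and 1013 CPM with MBNL1 and at 838, 828 and 775 CPM with MBNL2 (log2 fold change 0.40, 95% interval 0.19 to 0.61, adjusted p = 0.443), and Mybpc2 was the other. The +dox level of Des was 784 to 848 CPM. Tcap, the titin cap, overlapped between the cohorts, at 1120 to 1526 CPM and 852 to 1148 CPM. Among 31 calcium handling genes 3 (9.68%) were higher and 1 (3.23%) lower at that p. Camk2a, a calcium/calmodulin-dependent kinase, was at 73.7, 76.2 and 67.4 CPM with MBNL1 and at 48.8, 59.5 and 59.4 CPM with MBNL2 (log2 fold change 0.37, 0.19 to 0.56, adjusted p = 0.376), and Jph1 of the junctional membrane complex had 0.20 and Camk2g 0.18 on the same scale.

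Among 40 ion channel genes, 2 and 1 members, near the shares of all genes, were higher and lower at an unadjusted p below 0.05. The background potassium channel Kcnk3 was at 287, 266 and 281 CPM against 242, 209 and 257 CPM (log2 fold change 0.23, adjusted p = 0.765), Kcnq1 had a log2 fold change of 0.21, and Kcne1 was below 0.4 CPM in all 6 libraries. Among 31 genes of the MBNL family and muscle splicing regulators 2 were higher (6.45%, Mbnl1 and Six5) and 3 lower (9.68%). The splicing factor Srsf3 was at 72.8, 68.6 and 72.5 CPM with MBNL1 and at 106, 78.4 and 82.6 CPM with MBNL2 (log2 fold change -0.32, adjusted p = 0.721). Among 39 genes of energy metabolism 2 were higher and 2 lower (5.13% each), the glucose transporters Slc2a1 (log2 fold change 0.40) and Slc2a4 (0.22), and the brain-type creatine kinase Ckb (-0.33) and the pyruvate dehydrogenase subunit Pdha1 (-0.16), with adjusted p-values of 0.741 to 0.863. Of 23 natriuretic and hypertrophy genes, the chaperone Cryab alone passed that p (log2 fold change 0.20, adjusted p = 0.765); the natriuretic peptide protease Corin was at 252 to 279 CPM against 209 to 239 CPM, and the skeletal actin Acta1 at 3.89 to 27.7 CPM against 4.38 to 10.5 CPM.

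Of 20 genes of the integrated stress response 18 had a higher estimate with MBNL1, where 50.8% of all genes did, with a median log2 fold change of 0.11. At an unadjusted p below 0.05, 2 (10%, beside 3.14% of all genes) were higher. The summed level of this list overlapped, at 463 to 514 CPM with MBNL1 and 454 to 488 CPM with MBNL2. The pseudokinase Trib3 was at 4.15, 3.07 and 2.94 CPM against 2.66, 2.20 and 2.65 CPM (log2 fold change 0.43, adjusted p = 0.818) and the transcription factor Atf5 at 48.1, 44.1 and 56.1 CPM against 42.8, 38.0 and 40.7 CPM (0.29, adjusted p = 0.853). Chac1 (0.57) and Atf3 (-1.03) had adjusted p-values of 0.909 and 0.910. Of 30 cell cycle genes 28 (93.3%) had a lower estimate with MBNL1, where 49.1% of all genes did, with a median of -0.44, and 4 (13.3%, beside 2.63% of all genes) were lower at an unadjusted p below 0.05. Their summed level overlapped, at 122 to 143 CPM with MBNL1 and 129 to 175 CPM with MBNL2. These were the mitotic checkpoint kinase Bub1, the mitotic motors Kif11 and Cenpe and the proliferation marker Mki67, which was at 2.50, 3.24 and 5.73 CPM with MBNL1 and at 9.83, 8.48 and 4.90 CPM with MBNL2 (log2 fold change -1.02, adjusted p = 0.863). The set B libraries of Mki67 did not share the order of the set A libraries. Of 19 circadian clock genes 15 had a higher estimate (median 0.13) and Clock itself had a lower one (log2 fold change -0.34, adjusted p = 0.765), with Tef and Per3 at 0.25 and 0.24. Of 25 transcription factors of chamber identity 20 had a higher estimate (median 0.10); 1 was higher (Irx4) and 1 lower (Tbx20) at an unadjusted p below 0.05. Tbx20 differed by -0.19, Gata6 by 0.15, Hand2 by 0.17 and Irx4 by 1.54, the last at 0.0116 to 0.586 CPM.

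No member of the 38 extracellular matrix genes (median -0.07) or of the 52 interferon response genes (median -0.09) had an unadjusted p below 0.05. Eln, which encodes elastin, was at 25.5, 23.0 and 17.7 CPM with MBNL1 and at 56.8, 21.6 and 24.8 CPM with MBNL2, and Fbn1, fibrillin-1, at 33.9 to 46.3 CPM against 38.6 to 82.2 CPM, where the highest library was MBNL2 replicate 1 for both. Thbs1 and Lox had log2 fold changes of -0.87 and -0.61 with adjusted p-values of 0.909 and 0.944. The summed level of the interferon list was 961 to 3045 CPM in the MBNL1 cohort and 1558 to 1646 CPM in the MBNL2 cohort, the highest being MBNL1 replicate 3. Isg15, Mx2, Oas2 and Ifi44 had log2 fold changes of -0.59 to -1.01, with overlap between the cohorts in each.

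Markers of other cell types were counted in the same way, and none was called. In bulk RNA, fewer cells of a type and less RNA per cell cannot be told apart. Each summed level was also taken without its most abundant member, a choice made after seeing the data, and most of the separations between the cohorts were then lost. The 9 smooth muscle and pericyte markers summed to 525 to 624 CPM with MBNL1 and 436 to 490 CPM with MBNL2, without overlap, but to 364 to 459 CPM against 317 to 381 CPM without Acta2, smooth muscle actin. In this list 7 members had a higher estimate with MBNL1 and 2, Rgs5 (log2 fold change -0.13) and Cspg4 (-0.05), a lower one. At an unadjusted p below 0.05, 2 (22.2%, beside 3.14% of all genes) were higher. These were Cnn1, calponin 1, at 61.8, 71.7 and 29.1 CPM against 23.7, 26.5 and 22.1 CPM (adjusted p = 0.863), and Abcc9 (log2 fold change 0.20, adjusted p = 0.863). The 10 fibroblast markers summed to 5519 to 6174 CPM against 4649 to 5483 CPM, of which Gsn, which encodes gelsolin and was the 1 member (10%) higher at that p, made up 3774 to 4319 CPM and 2956 to 3819 CPM. Without Gsn the sums overlapped, at 1665 to 1856 CPM against 1581 to 1694 CPM. Of 12 sinoatrial node markers 6 had a higher and 6 a lower estimate with MBNL1, and none was at that p. Their sum was 285 to 351 CPM against 363 to 407 CPM, and without the calcium channel subunit gene Cacna2d2 it was 141 to 162 CPM against 143 to 188 CPM, with overlap. The sums of the ventricular myocyte and skeletal muscle markers were higher with MBNL1 and did not overlap, but did so without Myh7 and Ckm, the most abundant gene of each. The 5 neutrophil markers tested, of 10 listed, were at 1.13 to 1.69 CPM against 1.81 to 2.54 CPM. They stayed lower with MBNL1 without Csf3r, but near the floor, at 0.144 to 0.194 CPM against 0.268 to 0.903 CPM. Of the 5, 4 had a lower estimate with MBNL1 and 1, Ltf, a higher one (log2 fold change 2.65). The sums of the markers of atrial and endothelial cells, endocardium, macrophages, epicardium and red blood cells overlapped between the cohorts. The part of these levels in the differences above was not tested.

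The same comparison in the left ventricle called 3 genes (0.0156%), all higher in the MBNL1 cohort. Cdnf was among them, at 27.9 ± 8.20 CPM with MBNL1 and 8.66 ± 2.47 CPM with MBNL2, a log2 fold change of 1.69, and so was Kbtbd12, at 65.3 ± 7.78 and 43.1 ± 4.83 CPM, a log2 fold change of 0.60. Replicate 1 of the ventricular MBNL1 cohort is a library with few genes above 0, and without it the log2 fold change was 1.42 for Cdnf (adjusted p = 0.0111) and 0.51 for Kbtbd12 (adjusted p = 0.596). Only Cdnf was then called. The ventricular count depended on the tool: DESeq2 called 28 of 33368 genes, 10 higher and 18 lower with MBNL1. A replicate block called 5 (3 higher and 2 lower), and limma voom called Cdnf alone. A test of the difference between the tissues called no gene in edgeR's quasi-likelihood fit, limma voom or limma on log2(TPM + 1) and 1 predicted gene in DESeq2, with 1005 genes (5.23%) at an unadjusted p below 0.05 in edgeR. The smallest adjusted p was 0.854, which does not show that the tissues responded alike. The ventricular values of Efnb3 (log2 fold change -0.01, 95% interval -0.43 to 0.41), Des (0.04) and Camk2a (0.16) were nearer 0 than the atrial ones, with adjusted p-values of 0.854 for each difference. The signs of Mbnl1 (0.42) and Mbnl2 (-0.35) were the same in the ventricle. Of the 1109 atrial genes with an unadjusted p below 0.05, 70.0% had the same sign in the ventricle, as did 54.4% of all tested genes. The atria and ventricles of the study came from the same animals, so these are not independent samples. For the genes called by the repeat in atria, the ventricular medians were 0.05 in the 544 genes and -0.12 in the 461 genes, beside -0.02 over all genes, and 0.05, -0.10 and 0.0016 when its library with few genes was left out.

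**Figure D5:**
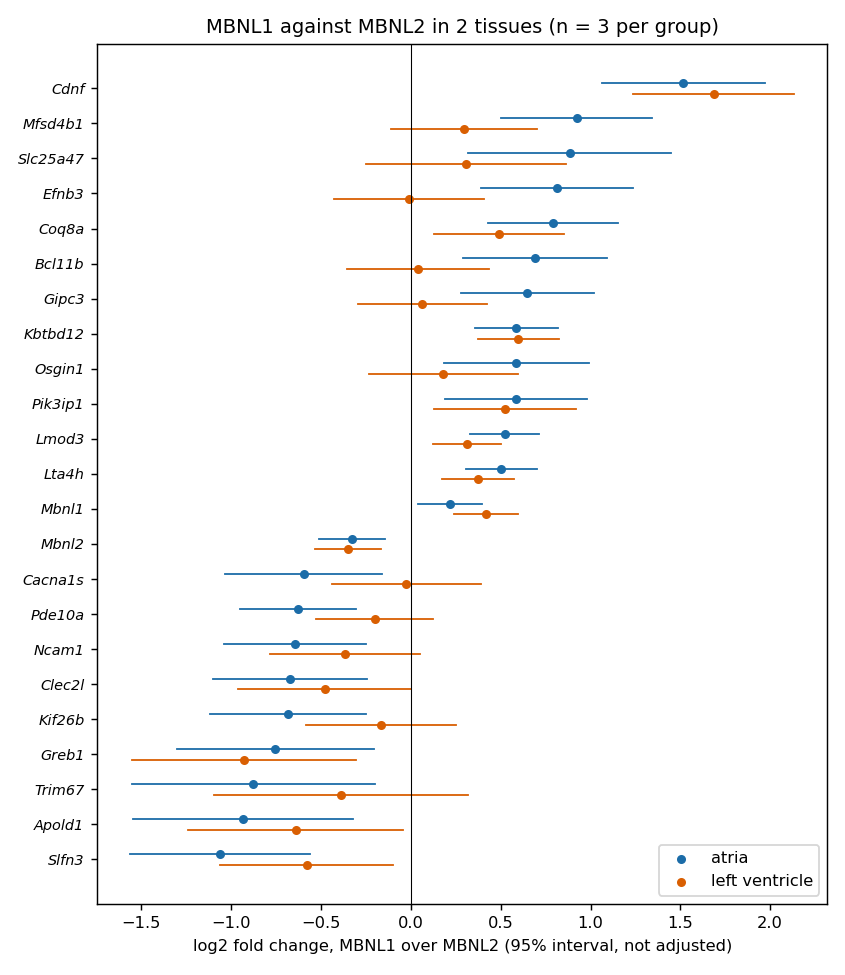
The plot of both tissues gives the log2 fold change of MBNL1 over MBNL2 (x axis) with its 95% interval, not adjusted for the number of genes, for the leading genes in atria (blue) and left ventricle (orange). Cdnf lies at 1.52 and 1.69, Efnb3 at 0.81 and -0.01, and most ventricular points lie nearer 0 than the atrial points by which the genes were chosen.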

How the data were processed

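Poly(A)-selected, stranded libraries were sequenced as paired 150 bp reads. Per the submitters' processing notes and the study's methods, the authors used STAR 2.7.10b (mm10) for alignment and RSEM 1.3.1 with the GENCODE M25 annotation for quantification. The deposited expected count values are RSEM estimates per symbol with no scaling for depth, and the deposited TPM values are scaled by transcript length and depth by the authors; how strand was set is not given in the sources used here.

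Expected counts were rounded and all 36 libraries fitted with 12 group means in edgeR 4.0.16 (limma 3.58.1, R 4.3.3), with TMM factors, robust dispersions and default filterByExpr (19231 of 55291 symbols kept). Calls needed a fold change of 1.5 or more and an adjusted p (Benjamini-Hochberg) below 0.05. The 3 replicates are separate animals. Alternatives were DESeq2 1.42.0, RLE and upper-quartile factors, no filter, fewer libraries, a replicate block, limma voom, limma on log2(TPM + 1) and leaving out each replicate. Scripts were tested on simulated counts. Genes were named by a fixed set of study genes, the called genes, the smallest p-values among uncalled genes beyond 1.5-fold and without overlap, up to 4 members of each gene list by p, and the 5 largest changes and 5 smallest p-values per direction among repeat-responsive genes of at least 1 CPM; the members and lists were chosen with earlier results of these data known. GENCODE M21 (GRCm38, the assembly of mm10) gave positions for 97.9% of the tested symbols. Splicing and the human cDNAs were not analysed here. Some genes that these rules name are not reported here. Figures used Python 3.11.15 and matplotlib 3.10.9.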

Additional observations from a re-analysis of the deposited data

How the results depend on the processing

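The 1 atrial gene called became 7 with DESeq2 (5 higher, 2 lower), 10 with limma voom (4 and 6), 2 with limma on log2(TPM + 1), 2 without the filter on low counts, 2 with the 18 atrial libraries, 0 with the 6 libraries alone, 2 without the fold cutoff and 0 to 2 when 1 atrial library was left out. In an alternative chosen after seeing the data, with replicates 1 and 2 of both cohorts only (set A), it was 0. Same-numbered replicates of the cohorts had deviations that correlated at 0.06, 0.09 and 0.21. MBNL1 replicates 1 and 3 correlated best with their own number but replicate 2 did not (0.096 with MBNL2 replicate 1), so the numbers were not used as pairs. Replicate 3 of each cohort, the only one of set B and of high Xist, correlated at -0.17 to -0.09 with the other numbers. The main fit has no term for sex or set, so both stay in its spread. With a replicate block the count was 3 (Cdnf, Coq8a and Kbtbd12, all higher), and within the 6 libraries 5 (3 and 2). The tissue difference was 0 in every fit except DESeq2, with 1. The medians of the repeat-responsive genes kept their sign in all fits, at 0.08 to 0.18 and -0.20 to -0.09 (the second was -0.09 with limma on log2(TPM + 1)). Among 92 named genes and 1653 values under alternatives, 5 lost and 16 gained a call, and no called gene changed sign; 18 uncalled values, in 6 genes (Ryr2, Dmpk, Gja5, Mbnl3, Fbn1 and Ptchd3), did. The call of Cdnf was lost in 5 fits, named with their values above. With 3 animals per cohort, small differences are not resolved.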

Other observations

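Of the 1109 genes with an unadjusted p below 0.05 between the atrial MBNL1 and MBNL2 cohorts, 334 also differed between –dox and +dox atria at an adjusted p below 0.05 (edgeR's quasi-likelihood test). In 305 of these the MBNL1 cohort lay on the –dox side of the MBNL2 cohort and in 29 on the other side, where among the 3060 of all 19231 genes (15.9%) below that adjusted p it was 2084 and 976. Sun2, a nuclear envelope protein, was an example, named after its values were seen, at 85.2, 82.3 and 87.3 CPM with MBNL1, 65.7, 60.7 and 71.2 CPM with MBNL2 and 89.0 to 97.5 CPM in –dox atria. Pcnt, the centrosomal protein pericentrin, was at 109, 109 and 119 CPM with MBNL1, 78.7, 87.3 and 99.1 CPM with MBNL2 and 139 to 146 CPM in –dox atria. Both had an adjusted p above 0.2 (0.219 and 0.225). Dgkh, a diacylglycerol kinase, did not follow the repeat: it was at 8.01, 8.01 and 7.89 CPM with MBNL1, 11.9, 10.1 and 10.8 CPM with MBNL2, 9.04 to 9.78 CPM in +dox and 9.58 to 10.8 CPM in –dox atria (log2 fold change between the vectors -0.45, adjusted p = 0.219).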
